A study of Mus musculus with 56 samples.

Results

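The constitutive androstane receptor (CAR, encoded by Nr1i3) and the pregnane X receptor (PXR, encoded by Nr1i2) were examined in mouse liver together with the Cyp2b cytochromes Cyp2b9, Cyp2b10 and Cyp2b13, the electron donor Por, the haem synthesis enzyme Alas1 and the aldo-keto reductase Akr1b7. These 8 genes, of 23813 genes in the RNA-seq table, were picked by name with their levels in the groups compared already known. The group levels and differences of the 8 genes are therefore given as a description, with no test. RNA-seq was performed on livers of male mice in 3 groups of 4 libraries. All 3 groups were fed low iodine chow containing the goitrogen propylthiouracil (PTU), so that their own thyroid hormone was depleted. Hypothyroid WT mice received PTU and vehicle, and hyperthyroid WT mice received PTU and injections of triiodothyronine (T3) in the last days of the diet. Hypothyroid L-NCOR1ΔID mice (genotype L-NCORdeltaID, kept on a mixed C57BL/6;129S strain) received PTU without T3. Their liver expresses a nuclear receptor corepressor 1 (NCOR1) that lacks the domains binding the thyroid hormone receptor (TR). In these mice the histone deacetylase HDAC3 was also reduced at a number of sites not bound by TR. The study proposes that these domains may also bring NCOR1 to regulators besides TR. The driver of this liver-specific change is not given in the sources used here. The study also kept a line with mutated TR, whose WT littermates had a mixed C57BL/6J and NIH Black Swiss background. Whether the WT mice used for RNA-seq came from that line is not given. The L-NCOR1ΔID mice of the study were younger on average than the WT mice. Genotype, age and, where it differs, strain therefore cannot be told apart. A list of regions with acetylated histone H3 in livers of hypothyroid and hyperthyroid WT mice was used for the genomic context.

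CAR and PXR are nuclear receptors that sense drugs, steroids and bile acids and bind DNA as heterodimers with the retinoid X receptor. CAR is held in the cytoplasm of resting hepatocytes and enters the nucleus upon treatment with phenobarbital, and Cyp2b10 is the classical CAR target in mouse liver. The products of Cyp2b9 and Cyp2b13 are closely related cytochromes that are predominantly expressed in female mouse liver. POR passes electrons from NADPH to microsomal cytochromes, ALAS1 catalyses the first and rate-limiting step in the synthesis of their haem, and AKR1B7 reduces aldehydes from lipids.

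The sequences that set the 3 Cyp2b genes apart are given first, because their RNA levels differed between the groups in different ways. They lie in 1 cluster on chromosome 7 of mm9 and are all transcribed from the plus strand, Cyp2b10 at chr7:26682639-26711643, Cyp2b13 at chr7:26846514-26881215 and Cyp2b9 at chr7:26958430-26995680 (GENCODE M1). Upstream of Cyp2b10 lies the phenobarbital-responsive enhancer module, which holds a CAR binding site known as NR1. NR1 was located as AGGTCA, 4 bases of any kind and AGTACA on the minus strand, so that the printed strand reads TGTACT, 4 bases and TGACCT. The site started 2354 bp upstream of the transcription start site (TSS) of Cyp2b10. The stretch around NR1 is shown on the plus strand with the aligned stretches of the other genes, and the 16 bases of the site or aligned with it are in capitals.
Cyp2b10, chr7:26680329-26680400: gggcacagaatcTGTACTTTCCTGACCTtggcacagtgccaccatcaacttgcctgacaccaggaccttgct
Cyp2b9, chr7:26957578-26957649: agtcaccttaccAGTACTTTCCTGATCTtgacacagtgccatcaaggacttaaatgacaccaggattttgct
Cyp2b13, chr7:26845676-26845747: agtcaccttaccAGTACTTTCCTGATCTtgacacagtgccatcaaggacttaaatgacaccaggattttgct

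The Cyp2b9 and Cyp2b13 stretches were the same in all 72 bases and differed from Cyp2b10 at 18 of them. Of these differences, 2 fell in the site, T1A and C14T, counted from 1 at the 5′ end of the capitals with the Cyp2b10 base first. The aligned 16 bases began 840 bp upstream of the TSS of Cyp2b9 and 826 bp upstream of that of Cyp2b13. Searched on both strands, this arrangement occurred in the 3000 bp upstream of 6 of 18605 genes with a position (0.0322%), and Cyp2b10 was the only gene of the 8 among them. This length of sequence was chosen so as to include the known site. Direct repeats of AGGTCA with 4 or 3 bases between the copies, the usual sites of CAR and PXR, occurred in the same windows of 0.102% and 0.167% of genes, and in none of the 8. A match or its absence says only whether these letters are present.

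Promoters of the 8 genes from RefSeq (GRCm38.p6, 300 bases around the start of each gene) were all matched. The promoters of Cyp2b9 and Cyp2b10 are shown because Cyp2b9 and Cyp2b13 were nearly identical here while their RNA levels were far apart. The half-site AGGTCA, searched on both strands, is in capitals.
Cyp2b9, chr7:26173159-26173458, plus strand: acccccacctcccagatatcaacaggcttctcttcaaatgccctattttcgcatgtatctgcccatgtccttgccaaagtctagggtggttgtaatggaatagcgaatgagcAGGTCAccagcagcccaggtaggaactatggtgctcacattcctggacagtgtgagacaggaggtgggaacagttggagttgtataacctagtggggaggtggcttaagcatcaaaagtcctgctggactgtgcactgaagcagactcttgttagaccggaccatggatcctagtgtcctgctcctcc
Cyp2b10, chr7:25897408-25897707, plus strand: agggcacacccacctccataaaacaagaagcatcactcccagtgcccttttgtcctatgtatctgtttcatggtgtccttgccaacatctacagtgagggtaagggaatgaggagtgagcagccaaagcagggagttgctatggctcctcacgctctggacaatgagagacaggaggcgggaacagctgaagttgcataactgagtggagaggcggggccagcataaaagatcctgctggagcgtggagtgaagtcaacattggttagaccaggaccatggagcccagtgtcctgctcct

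The Cyp2b13 promoter (chr7:26061245-26061544, GRCm38.p6) differed from that of Cyp2b9 at 2 of 300 bases, T48C and C104T, counted from its 5′ end with the Cyp2b9 base first. Cyp2b10 shared 220 of 289 aligned bases with either of them (76.1%). The half-site was present in the promoters of Cyp2b9, Cyp2b13 and Akr1b7 and in 16% of all 27025 promoters. Over their transcripts, Cyp2b9 and Cyp2b13 were identical at 91.6% of 1847 aligned bases, and Cyp2b10 was identical to them at 87.5% and 87.9%. Of all windows of 50 bases in Cyp2b9, 10.6% were found unchanged in Cyp2b13, and of those in Cyp2b10, 0.564% were found in Cyp2b9 and 7.16% in Cyp2b13. Reads that lie within such windows cannot be assigned to 1 gene. The study kept reads that aligned to 1 place only, so that such reads may be missing. The low values of Cyp2b13 are uncertain to that extent.

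RNA levels are given as RPKM, a number of reads divided by the length of the transcript and the depth of the library. The smallest steps between values gave an estimated depth of 29100000 to 38200000 reads in hypothyroid WT, 21300000 to 26100000 reads in hyperthyroid WT and 38100000 to 42600000 reads in L-NCOR1ΔID libraries. Hyperthyroid WT replicate 3 stood apart, since the summed level of 4 pancreatic acinar genes (Cpa1, Pnlip, Ctrb1 and Cela2a) was 692 RPKM there, between 3.2 and 16.6 RPKM in the other hyperthyroid libraries and at most 4.03 RPKM elsewhere. Hepatocyte markers were abundant in every library, with a summed level of 6 markers from 19925 to 49725 RPKM. Ncor1 averaged 14.7 ± 0.665 RPKM (SD, n = 4) in hypothyroid WT and 13 ± 0.844 RPKM in L-NCOR1ΔID livers, and a value over the whole transcript does not check the deleted domains. The 4 libraries of a group are biological replicates by the study's methods, although the labels do not name the mice, and p-values measure the spread between these libraries.

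In hypothyroid WT liver the 8 genes fell into 4 ranges. Por averaged 211.8 ± 19.5 RPKM (SD, n = 4), Alas1 206.6 ± 79.7 RPKM and Nr1i3 172.7 ± 25.5 RPKM, and their libraries overlapped. Nr1i2 followed at 36.2 ± 1.88 RPKM with no overlap with these or with the Cyp2b genes. Cyp2b10 averaged 14.0 ± 3.21 RPKM and Cyp2b9 12.3 ± 6.43 RPKM, again with overlap. Cyp2b13 and Akr1b7 were listed near 0, at 0.133 ± 0.0471 and 0.129 ± 0.0378 RPKM, which rested on an estimated 4 to 13 and 3 to 8 reads per library. All 8 genes passed the filter on low values in each comparison, for which 4 or more of the 8 libraries had to reach 0.1 RPKM.

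**Figure D1:**
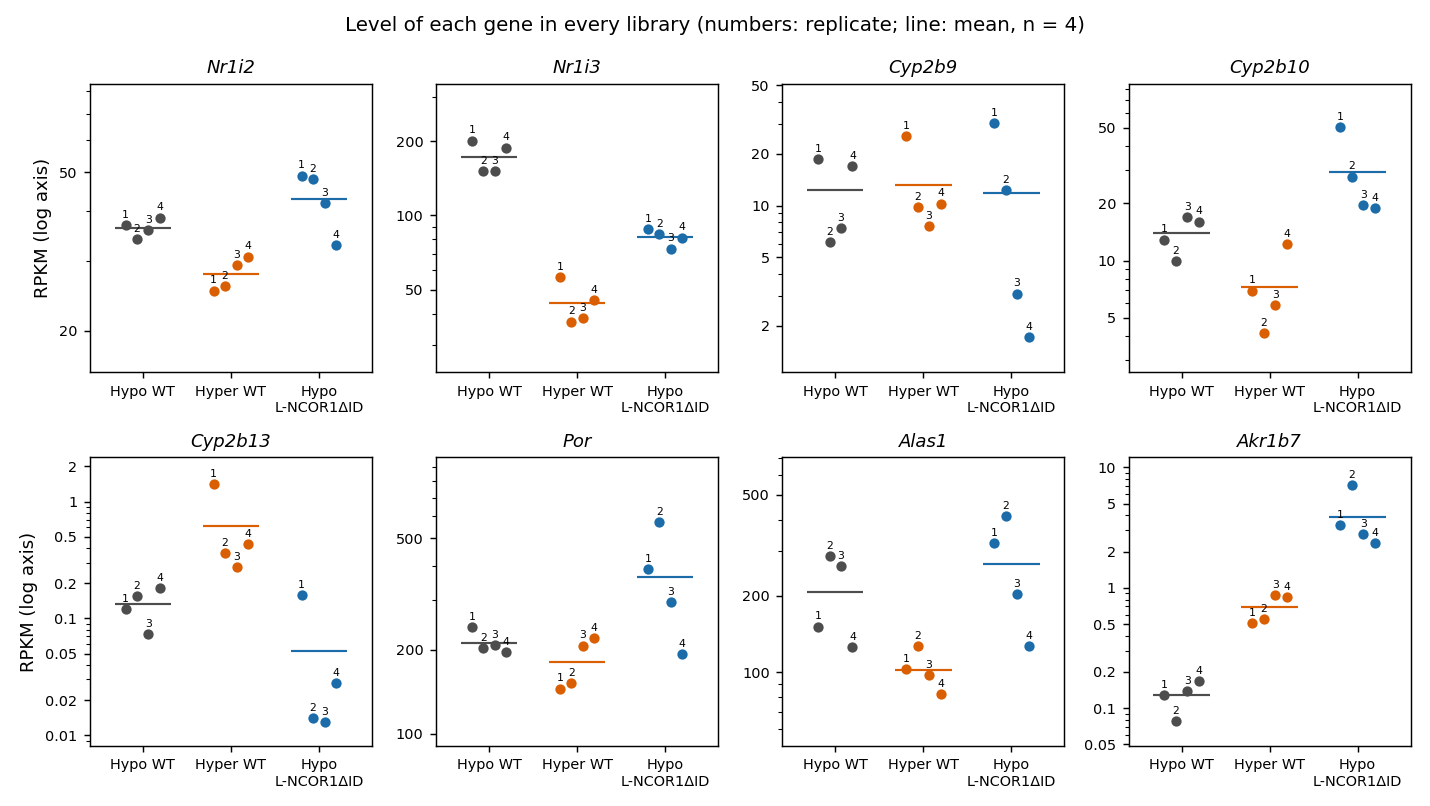
RPKM of each gene on a log axis in hypothyroid WT (Hypo WT), hyperthyroid WT (Hyper WT) and hypothyroid L-NCOR1ΔID liver, with 1 point per library, the replicate number above it and a line at the mean (n = 4). Nr1i3 is highest in hypothyroid WT, Akr1b7 has means of 0.129, 0.691 and 3.90 RPKM in the 3 groups, and the Cyp2b9 libraries of L-NCOR1ΔID mice spread from 1.72 to 30.1 RPKM.

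The receptors were lower in hyperthyroid than in hypothyroid WT liver, and CAR was also lower in L-NCOR1ΔID liver. Nr1i3 measured 201, 151, 151 and 188 RPKM in hypothyroid WT replicates 1 to 4. It measured 56.5, 37.2, 38.5 and 45.4 RPKM in hyperthyroid WT. In L-NCOR1ΔID it measured 87.8, 84.1, 73.5 and 81.3 RPKM. The 3 groups did not overlap, with hypothyroid WT highest and hyperthyroid WT lowest. On the log2(RPKM + 0.1) scale, on which all differences are given, hyperthyroid WT was at -1.97 ± 0.15 (SE) and L-NCOR1ΔID at -1.07 ± 0.11 relative to hypothyroid WT, and L-NCOR1ΔID was 0.90 ± 0.13 above hyperthyroid WT.

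Nr1i3 (chr1:173144101-173150832 in mm9, plus strand) runs into the 3′ part of Tomm40l (chr1:173147933-173152645), a gene of the mitochondrial import machinery on the opposite strand. The exons of Tomm40l cover 257 of the 1414 bases of the Nr1i3 transcript (18.2%). Tomm40l averaged 78.2 ± 11.9 RPKM in hypothyroid WT, 23.3 ± 4.19 RPKM in hyperthyroid WT and 35.3 ± 2.74 RPKM in L-NCOR1ΔID (SD, n = 4), the same order of groups. The use of strand in counting is not given in the sources used here, and reads from the shared part then cannot be told apart.

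Nr1i2 measured 36.7, 33.9, 35.8 and 38.4 RPKM in hypothyroid WT replicates 1 to 4. In hyperthyroid WT it measured 25.2, 25.9, 29.3 and 30.7 RPKM, below every hypothyroid library. In L-NCOR1ΔID the values were 49.0, 48.1, 41.8 and 32.8 RPKM, so that 3 libraries lay above and 1 below the hypothyroid WT range. The difference of hyperthyroid from hypothyroid WT was -0.38 ± 0.08, and that of L-NCOR1ΔID 0.23 ± 0.12.

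The balance of the receptors was compared within each library, where scaling cancels. CAR transcripts exceeded PXR transcripts 5.47, 4.45, 4.22 and 4.89 times in hypothyroid WT replicates 1 to 4 on the RPKM scale. The ratio was 2.24, 1.44, 1.31 and 1.48 in hyperthyroid WT and 1.79, 1.75, 1.76 and 2.48 in L-NCOR1ΔID. All 8 libraries of these groups lay below all 4 of hypothyroid WT, and hyperthyroid WT and L-NCOR1ΔID overlapped with means of 1.62 ± 0.42 and 1.94 ± 0.358 (SD, n = 4).

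Cyp2b10, which encodes the main phenobarbital-inducible cytochrome of mouse liver, differed from hypothyroid WT in opposite directions in the other groups. It measured 12.9, 9.96, 17.0 and 16.1 RPKM in hypothyroid WT replicates 1 to 4. It measured 6.95, 4.15, 5.84 and 12.3 RPKM in hyperthyroid WT and 50.3, 27.7, 19.6 and 18.9 RPKM in L-NCOR1ΔID. Every L-NCOR1ΔID library was above every WT library, while hyperthyroid WT replicate 4 lay within the hypothyroid range. The difference was -1.01 ± 0.30 for T3 and 0.96 ± 0.31 for L-NCOR1ΔID relative to hypothyroid WT, and 1.97 ± 0.38 between L-NCOR1ΔID and hyperthyroid WT.

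Cyp2b10 and its receptor thus did not follow the same order of groups. The ratio of Cyp2b10 to Nr1i3 was 0.0642 to 0.113 in hypothyroid WT, 0.111 to 0.27 in hyperthyroid WT and 0.232 to 0.573 in L-NCOR1ΔID, and the hypothyroid WT and L-NCOR1ΔID libraries did not overlap. In L-NCOR1ΔID liver Nr1i3 was at 47.3% of the hypothyroid WT mean and Cyp2b10 at 208% of it.

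Cyp2b9 showed no separation between groups and the widest spread within them among the 8 genes in hypothyroid WT and L-NCOR1ΔID. The values in hypothyroid WT replicates 1 to 4 were 18.7, 6.12, 7.42 and 16.9 RPKM. In hyperthyroid WT they were 25.4, 9.76, 7.57 and 10.3 RPKM, and in L-NCOR1ΔID 30.1, 12.3, 3.08 and 1.72 RPKM. The SD on the log2 scale was 1.84 there, and 0.0961% of 9370 genes with at least 1 RPKM in all 12 libraries had an SD as large, against a median of 0.17. The difference from hypothyroid WT was 0.11 ± 0.45 for T3, which turned to -0.13 when libraries were scaled to equal medians of gene ratios, and -0.70 ± 0.82 for L-NCOR1ΔID. The latter was -1.41 ± 0.67 without L-NCOR1ΔID replicate 1 and -0.33 ± 0.88 and -0.06 ± 0.72 without replicates 3 and 4, and -0.44 ± 0.91 without hypothyroid WT replicate 1.

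Cyp2b13 was listed at 0.12, 0.155, 0.073 and 0.182 RPKM in hypothyroid WT replicates 1 to 4. In hyperthyroid WT it was listed at 1.40, 0.362, 0.276 and 0.43 RPKM, above every hypothyroid library. In L-NCOR1ΔID it was listed at 0.157, 0.014, 0.013 and 0.028 RPKM, where replicate 1 lay within the hypothyroid range and the others below it. These values stand for an estimated 33 reads over the 4 hypothyroid WT libraries, 115 over the hyperthyroid WT libraries and 16 over the L-NCOR1ΔID libraries. By this estimate 3 L-NCOR1ΔID libraries held 1 or 2 reads each. The difference of hyperthyroid from hypothyroid WT was 1.41 ± 0.41, and it was 0.98 ± 0.24 without hyperthyroid WT replicate 1, which held 66 of the 115 reads. With a pseudocount of 1 or 0.01 it was 0.47 or 1.90, so that its size depends on this choice. The difference of L-NCOR1ΔID was -0.67 ± 0.31, with -0.11 and -1.65 at these pseudocounts.

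Por, the main electron donor of microsomal cytochromes, measured 240.2, 203, 208 and 197 RPKM in hypothyroid WT replicates 1 to 4. It measured 145, 152, 207 and 219.5 RPKM in hyperthyroid WT and 387, 573, 296 and 193 RPKM in L-NCOR1ΔID. The groups overlapped in each comparison, although 3 of 4 L-NCOR1ΔID libraries lay above all WT libraries and replicate 4 lay below all hypothyroid WT libraries. The difference from hypothyroid WT was -0.25 ± 0.15 for T3 and 0.67 ± 0.28 for L-NCOR1ΔID, the latter 0.93 ± 0.20 without L-NCOR1ΔID replicate 4.

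Alas1 measured 151, 287, 261 and 126 RPKM in hypothyroid WT replicates 1 to 4. In hyperthyroid WT it measured 103, 126, 97.4 and 82.1 RPKM, and in L-NCOR1ΔID 323, 414, 203 and 127 RPKM. Hyperthyroid WT replicate 2 was the only library of its group within the hypothyroid range, and every L-NCOR1ΔID library exceeded every hyperthyroid WT library. The difference from hypothyroid WT was -0.95 ± 0.26 for T3 and 0.32 ± 0.39 for L-NCOR1ΔID, and L-NCOR1ΔID was 1.26 ± 0.33 above hyperthyroid WT.

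Akr1b7 had the largest difference of the 8 genes in L-NCOR1ΔID liver. It was listed at 0.129, 0.078, 0.138 and 0.169 RPKM in hypothyroid WT replicates 1 to 4. It was listed at 0.513, 0.546, 0.871 and 0.834 RPKM in hyperthyroid WT and at 3.33, 7.13, 2.79 and 2.35 RPKM in L-NCOR1ΔID. The 3 groups did not overlap, and the libraries of these groups held an estimated 3 to 8, 16 to 27 and 113 to 338 reads. The difference from hypothyroid WT was 1.78 ± 0.22 for T3 and 4.01 ± 0.32 for L-NCOR1ΔID, with 0.58 and 2.03 at a pseudocount of 1 and 2.35 and 4.72 at 0.01, so that their size depends on this choice. Between L-NCOR1ΔID and hyperthyroid WT it was 2.23 ± 0.33.

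Akr1b7 (chr6:34362334-34373142 in mm9, plus strand) is crossed on the opposite strand by Gm13857, which covers 348 of 1281 bases of its transcript (27.2%). Windows of 50 bases shared with its relatives were few, 1.14% with Akr1b10, 0.244% with Akr1b8 and 0 with Akr1b3. Of these relatives, Akr1b10 rose with T3 from 0.485 ± 0.213 to 1.3 ± 0.217 RPKM (log2 difference 1.34 ± 0.29, limma adjusted p = 0.005), and none of the 3 passed the test in L-NCOR1ΔID. Akr1b7 is also made in the adrenal cortex, and of 4 adrenal markers Cyp11b1 and Mc2r were listed at 0 and Cyp11a1 under 0.1 RPKM in all 12 libraries, while Star ranged from 0.572 to 0.754 RPKM in hypothyroid WT, 0.648 to 0.973 RPKM in hyperthyroid WT and 0.671 to 0.972 RPKM in L-NCOR1ΔID.

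**Figure D2:**
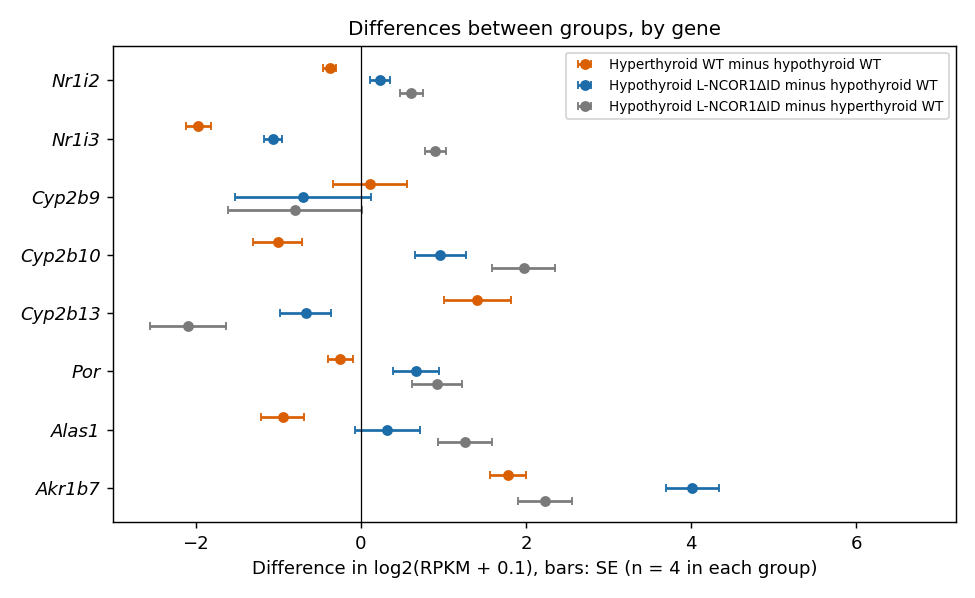
Difference in log2(RPKM + 0.1) between each pair of groups with its SE (n = 4 per group), 1 row per gene. Nr1i3 lies left of 0 in both comparisons with hypothyroid WT (-1.97 and -1.07), Cyp2b10 lies on opposite sides (-1.01 and 0.96) and Akr1b7 lies right of 0 in both (1.78 and 4.01).

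Counted over the 8 genes, hyperthyroid WT did not overlap with hypothyroid WT for 4, higher for Cyp2b13 and Akr1b7 and lower for Nr1i2 and Nr1i3. Over all 13941 genes tested, 35.8% were higher and 10.8% lower without overlap (46.6% in either direction). L-NCOR1ΔID did not overlap with hypothyroid WT for 3 of the 8, higher for Cyp2b10 and Akr1b7 and lower for Nr1i3, where 7.78% and 5.36% of 13790 genes did so (13.1% in either direction). Relative to hyperthyroid WT, L-NCOR1ΔID was higher without overlap for 5 (Nr1i2, Nr1i3, Cyp2b10, Alas1 and Akr1b7) and lower for Cyp2b13, where 9.57% and 28.7% of 14017 genes did so (38.3% in either direction). The genes were chosen on these comparisons, and nothing is read from the counts. The median difference of the 8 genes was -0.32 for T3, 0.28 for L-NCOR1ΔID and 0.91 between them, and that of all genes 0.23, 0.03 and -0.19. Scaling to equal medians of gene ratios moved the median of all genes for T3 from 0.23 to 0.01. Relative to it, the T3 difference of Nr1i2 became -0.62 and that of Por -0.49, and Por and Alas1 joined the genes that were lower without overlap.

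The L-NCOR1ΔID libraries differed among themselves in a recurring order. Replicate 4 had the lowest value for 6 of the 8 genes (Nr1i2, Cyp2b9, Cyp2b10, Por, Alas1 and Akr1b7). Replicate 3 was the lowest for Nr1i3 and Cyp2b13, and the highest value was in replicate 1 for 5 and in replicate 2 for 3. Whether other genes follow this order was not examined. Without replicate 4, Nr1i2 and Por also lay above hypothyroid WT with no overlap, which made 4 genes with Cyp2b10 and Akr1b7. Without replicate 1, Cyp2b13 also lay below hypothyroid WT. Fewer libraries are more easily free of overlap, and the shares of all genes with these libraries left out were not counted. In hypothyroid WT, replicate 2 was the lowest for 5 of the 8 genes.

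The T3 differences kept their direction without hyperthyroid WT replicate 3, the library with the pancreatic transcripts. They were then -1.90 ± 0.16 for Nr1i3, -0.41 ± 0.09 for Nr1i2, -0.94 ± 0.34 for Cyp2b10 and 0.32 ± 0.48 for Cyp2b9. For Cyp2b13, Por, Alas1 and Akr1b7 they were 1.65 ± 0.41, -0.32 ± 0.15, -0.93 ± 0.30 and 1.67 ± 0.23. Other markers also moved with T3. The summed level of 5 Kupffer cell and macrophage markers was 41.9 to 59.6 RPKM in hypothyroid WT and 123 to 191 RPKM in hyperthyroid WT, and all 5 rose in the limma fit. That of 6 hepatocyte markers was 38086 to 49725 and 19925 to 28419 RPKM, and Alb and Ttr fell. Most of this sum was Alb, at 27356 to 37284 RPKM in hypothyroid WT and 11609 to 17486 RPKM in hyperthyroid WT. Apoa1, Apob, Tat and Cps1 did not pass the thresholds. Apoa1, Apob and Tat overlapped between these groups, and Cps1 was lower with T3 without overlap. Of 6 genes of hepatocytes around the central vein, where CAR target cytochromes are expressed most, Glul, Axin2 and Lgr5 rose and Cyp2e1, Oat and Slc1a2 fell. Col3a1 of 6 stellate cell, Krt7 of 5 cholangiocyte and Ptprc of 5 lymphocyte markers rose as well. The cholangiocyte marker Sox9 was lower with T3 without overlap, at 1.29 to 1.67 RPKM in hypothyroid WT and 0.621 to 1.09 RPKM in hyperthyroid WT, but did not pass. The summed level of the 5 cholangiocyte markers overlapped, at 12 to 16.1 and 10.4 to 19.2 RPKM. None of these markers passed the test in L-NCOR1ΔID. Of 5 genes of hepatocytes around the portal vein, Hsd17b13 fell with T3. The erythroid Alas2, which encodes the form of ALAS made in red cell precursors, fell in both groups. It measured 73.7 to 92.8 RPKM in hypothyroid WT, 7.7 to 16.2 RPKM with T3 and 28.6 to 45.1 RPKM in L-NCOR1ΔID. The globins Hbb-b1 and Hba-a1 were higher with T3 without overlap, although neither passed the thresholds. Hbb-b1 measured 45 to 88.4 RPKM in hypothyroid WT and 106 to 161 RPKM with T3, and Hba-a1 14.5 to 28.4 and 28.9 to 43.6 RPKM. The summed level of the 4 erythroid markers was 140 to 204, 147 to 214 and 112 to 194 RPKM in hypothyroid WT, hyperthyroid WT and L-NCOR1ΔID. Fewer cells of a type and less RNA per cell cannot be told apart in whole liver, and the part of these markers in the differences above was not tested.

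To set these genes beside the rest of the pathway, 35 further targets of CAR and PXR were followed, all of which were tested. This and the other gene lists were chosen with earlier results of these data known, so that their counts and p-values are a description. The thresholds were a limma adjusted p of 0.01 and, except for L-NCOR1ΔID against hypothyroid WT, a log2 difference of 1. With T3, 14 fell and 4 rose, where 3.47% and 8.28% of all genes did so (11.8% in either direction), and the median difference was -0.93 against 0.23 over all genes. In L-NCOR1ΔID liver 9 rose and 0 fell, where 0.725% and 0.544% of all genes did so (1.27% in either direction), and the median was 0.40 against 0.03. At an unadjusted limma p under 0.05, 16 were higher and 2 lower in L-NCOR1ΔID, and 5 and 26 with T3. The shares of all genes at this level were not counted, and the percentages above do not apply to it. The count of 9 was 5 without L-NCOR1ΔID replicate 1 or without hypothyroid WT replicate 3. Many of these genes belong to families of near-identical copies (Cyp2c, Cyp3a, Gstm). The study kept reads that aligned to 1 place only, so that reads shared by copies may be missing.

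Among 10 cytochromes, 6 fell with T3. Cyp2c54 dropped from 195 ± 18.1 to 20.9 ± 4.02 RPKM (log2 difference -3.23 ± 0.14, limma adjusted p = 2.7e-06) and Cyp2c29, a CAR target that hydroxylates fatty acids and drugs, from 1515 ± 93.1 to 217 ± 57.1 RPKM (-2.84 ± 0.18, adjusted p = 9.1e-06). Cyp1a2 and Cyp2c37 fell by 2.99 and 2.09 on the log2 scale. In L-NCOR1ΔID liver 3 rose. The PXR target Cyp3a11, the main drug-metabolising Cyp3a of mouse liver, rose from 204 ± 80.7 to 2549 ± 86.8 RPKM (3.74 ± 0.27, limma adjusted p = 0.00027). Cyp2c55 rose from 2.17 ± 1.84 to 19.1 ± 5.59 RPKM (3.40 ± 0.51, adjusted p = 0.0084) and Cyp3a25 from 164 ± 17.5 to 400 ± 51.7 RPKM (1.28 ± 0.12, adjusted p = 0.00067). Cyp3a11 averaged 66.9 ± 40.9 RPKM in hyperthyroid WT, which did not pass against hypothyroid WT (-1.76 ± 0.50, limma adjusted p = 0.016).

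Among 20 conjugation and hydrolysis enzymes, 7 fell and 4 rose with T3. The glutathione transferases Gsta1, Gsta2 and Gstm1 fell by 4.23, 4.19 and 2.71 on the log2 scale, whereas the oestrogen sulfotransferase Sult1e1 rose from 0.705 ± 0.301 to 91.7 ± 66.5 RPKM (6.52 ± 0.60, limma adjusted p = 5.4e-05). In L-NCOR1ΔID liver 5 rose, led by Gstm3 with 293 ± 32.5 and 1031 ± 142 RPKM (1.81 ± 0.13, adjusted p = 0.00027). The carboxylesterase Ces2a, Papss2, which makes the sulfate donor, and Gstm2 rose by 1.47, 1.30 and 1.15. Of 5 transporters, the bile acid and conjugate exporter Abcc3 fell with T3 from 135 ± 24.6 to 4.43 ± 1.23 RPKM (-4.92 ± 0.21, limma adjusted p = 2.4e-06) and the uptake carrier Slco1a4 rose in L-NCOR1ΔID by 1.48 ± 0.19.

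**Figure D3:**
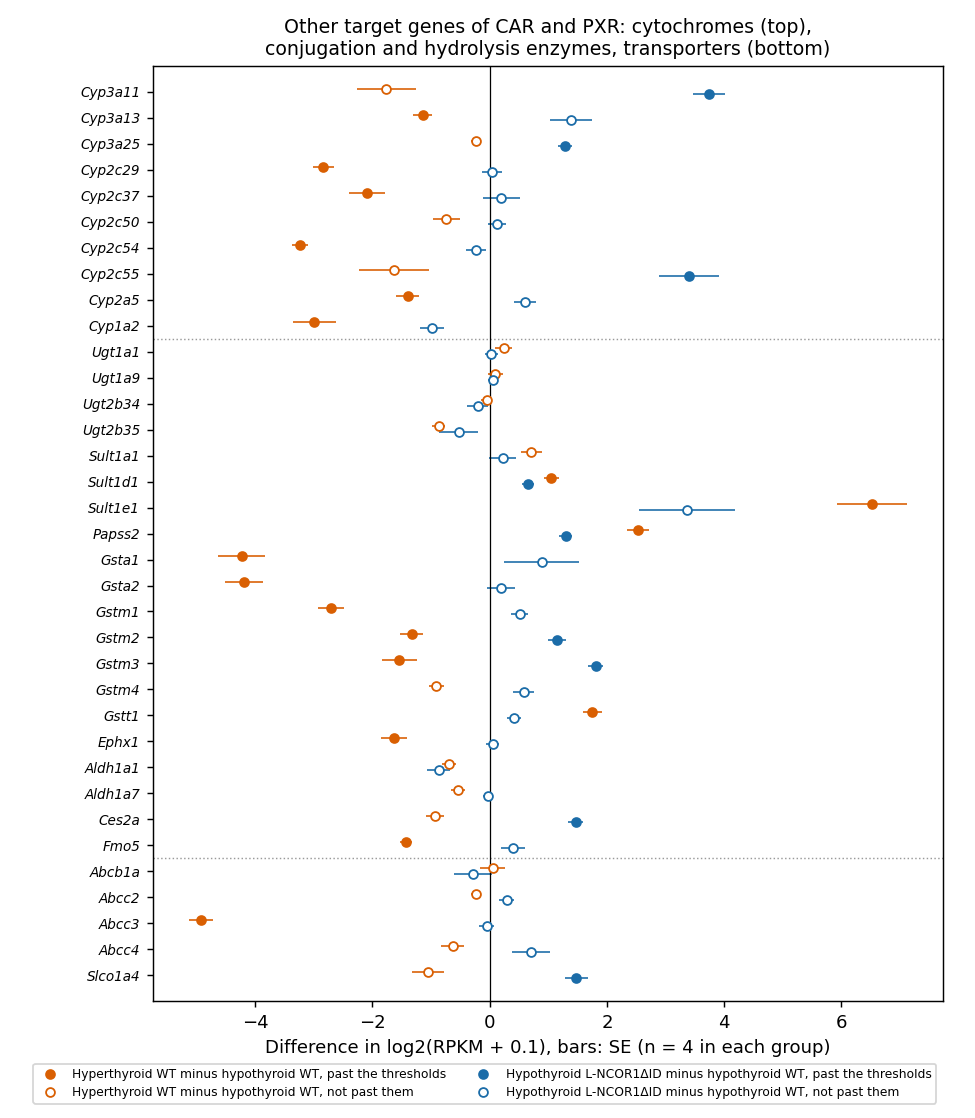
Difference in log2(RPKM + 0.1) from hypothyroid WT with its SE (n = 4 per group) for 35 targets of CAR and PXR, for hyperthyroid WT and for hypothyroid L-NCOR1ΔID. Filled points passed the thresholds, 14 to the left and 4 to the right for hyperthyroid WT and 9 to the right for L-NCOR1ΔID.

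L-NCOR1ΔID and hyperthyroid WT were also compared directly, with the same libraries as above. Of the 35 targets, 21 were higher and 2 lower in L-NCOR1ΔID, where 3.00% and 5.52% of all genes were called (8.53% in either direction), and the median difference was 1.68 against -0.19 over all genes. The largest differences were 5.50 ± 0.44 for Cyp3a11, 5.12 ± 0.57 for Gsta1, 5.03 ± 0.38 for Cyp2c55 and 4.88 ± 0.19 for Abcc3. Papss2 and Gstt1 were lower, at -1.23 ± 0.17 and -1.33 ± 0.15. Beside them, Cyp2b10 was 1.97 ± 0.38 higher, Nr1i3 0.90 ± 0.13 higher and Cyp2b13 at -2.09 ± 0.46.

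Partners of the receptors moved less than the targets by their median. Among 18 partners and coregulators, Nr0b2, a repressor of nuclear receptors, fell with T3 from 31.7 ± 3.21 to 15.1 ± 4.59 RPKM (-1.11 ± 0.21, limma adjusted p = 0.0025). In L-NCOR1ΔID the bile acid receptor Nr1h4 fell from 60.6 ± 1.72 to 39.3 ± 1.59 RPKM (-0.62 ± 0.06, limma adjusted p = 0.00088). Over all genes, 3.47% fell past the thresholds with T3 and 0.544% in L-NCOR1ΔID. Rxra, Rxrb, Hnf4a, Nr3c1, Ppp2ca, Ncoa1 and Ncoa6 were higher with T3 without overlap, by 0.28 to 0.87, as were 35.8% of all genes. Their limma adjusted p was under 0.01, and their differences were under the log2 threshold of 1. The share of all genes at that p alone was not counted. The median difference of the list was 0.21 for T3 and -0.08 for L-NCOR1ΔID, against 0.23 and 0.03 over all genes.

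Beyond Alas1, the haem pathway was followed by 10 genes. The haem oxygenases Hmox1 and Hmox2, which break haem down, rose with T3 by 2.01 ± 0.25 and 1.10 ± 0.09, and Hmox2 rose in L-NCOR1ΔID from 20.5 ± 0.965 to 30.5 ± 2.45 RPKM (0.57 ± 0.08, limma adjusted p = 0.0045). None of the 8 genes of haem synthesis and import that follow Alas1 passed the thresholds in either comparison, where 11.8% and 1.27% of all genes did so. With T3, Fech (-0.51 ± 0.06, limma adjusted p = 0.00025) and Urod (0.35 ± 0.06, limma adjusted p = 0.0019) missed only the log2 threshold. In L-NCOR1ΔID, Alad came closest (-0.72 ± 0.12, limma adjusted p = 0.012). Of 3 other carriers of electrons to microsomal enzymes, Cyb5a fell with T3 from 1171 ± 107 to 454 ± 16.7 RPKM (-1.36 ± 0.10, adjusted p = 1.8e-05) and none passed in L-NCOR1ΔID.

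Cyp2b9 and Cyp2b13 belong to the genes with higher expression in female than male liver, and all mice here were male. Of 13 other female-biased genes, 12 were tested for T3. Of these, 5 rose and 3 fell, where 8.28% and 3.47% of all genes did so. Their median difference was 0.56 against 0.23 over all genes. Cyp3a44 and Cyp3a16 rose from 0.115 ± 0.0952 to 52.5 ± 33.3 RPKM and from 0.148 ± 0.064 to 64.9 ± 46.2 RPKM, Sult3a1 rose by 6.22 ± 1.26 and Acot3 fell by 5.77. Of 11 male-biased genes 2 rose and 5 fell, with a median of -1.64, and the differences were -7.06 for Cyp4a12b, -4.33 for Cyp4a12a, -2.74 for Mup20 and 3.37 for Elovl3. In L-NCOR1ΔID, 1 of 10 female-biased genes tested rose (Cyp3a16, 1.62 ± 0.21, limma adjusted p = 0.0037) and 1 of 11 male-biased genes fell (Susd4, -1.05 ± 0.16, adjusted p = 0.0092). Over all genes, 0.725% rose and 0.544% fell there. The remaining Cyp2b genes of the list, Cyp2b19 and Cyp2b23, were too low to be tested.

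The genes most like each of the 8 except Cyp2b13 were found by Pearson's r over the 12 libraries, among 11177 genes with a mean of at least 1 RPKM in a group. Cyp2b13 did not reach this mean in any group and was left out. The libraries share groups and depth, and r is a description. Nr1i3 was followed most closely by the overlapping Tomm40l (0.98), Daam1 and Adamts7 (0.97 each), and Nr1i2 by Eif2a and Coq8b (0.97 each) and AA986860 (0.96). Cyp2b10 was followed by the carbonyl reductase Cbr3 and the aldo-keto reductase Akr1e1 (0.95 each) and 2200002D01Rik (0.94), and Akr1b7 by Arhgap10 (0.98), Ube2q1 (0.97) and the lysosomal protease Ctsl (0.96). Cbr3 averaged 4.68, 1.17 and 8.82 RPKM in hypothyroid WT, hyperthyroid WT and L-NCOR1ΔID, and Ctsl 48.3, 80.6 and 143 RPKM. Values were lower for Cyp2b9, at 0.80 for Gtdc1 and 0.79 for Clk1 and Hps5. Por was followed by Rabep2 and Napa (0.95 each) and Clta (0.94), and Alas1 by Hip1r and Efhd2 (0.91 each) and Zgpat (0.90).

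The chromatin around the 8 genes was described with the list of 37200 H3-acetylated regions, which merges both acetylation marks and both thyroid states and carries no signal. The TSSs of 7 of the 8 genes lay inside an acetylated region, as did those of 58% of 18605 genes with a position. The region at Cyp2b10 (chr7:26671847-26683830) reached from 10848 bp upstream to 1135 bp downstream of the TSS and contained the NR1 stretch shown above. The region at Cyp2b9 (chr7:26952950-26961536) contained the aligned stretch of that gene. At Cyp2b13 neither the TSS nor the aligned stretch lay in a region of the list, and the nearest region (chr7:26838860-26841600) ended 4914 bp upstream of the TSS. The TSS of Akr1b7, listed at a similar RPKM as Cyp2b13 in hypothyroid WT, lay in a region of 2047 bp.

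The regions at Nr1i3, Nr1i2, Por and Alas1 were longer, at 34154, 27576, 42722 and 21653 bp against a median of 2537 bp over all regions. That median includes regions away from any TSS, and the length of regions that hold a TSS was not examined separately. Within 100 kb of the TSS there were 14 regions for Nr1i3, 11 for Alas1, 9 for Por, 8 for Cyp2b10 and Akr1b7, 7 for Cyp2b13, 6 for Nr1i2 and 5 for Cyp2b9. Their median was 8, and that of all genes 6 (quartiles 2 and 9). The 3 Cyp2b genes share parts of these windows, and a change in acetylation between groups was not analysed here.

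**Figure D4:**
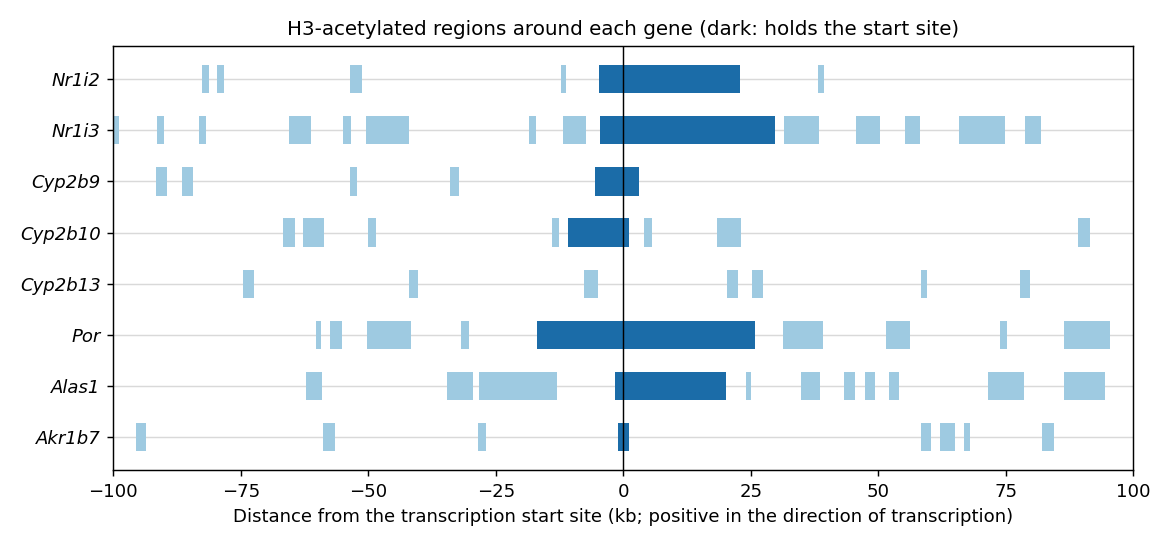
H3-acetylated regions within 100 kb of the TSS of each gene, drawn to scale by distance from the TSS in kb, positive in the direction of transcription, with the region that holds the TSS in dark blue. Cyp2b13 is the only gene of the 8 without such a region, and the dark regions of Nr1i2, Nr1i3, Por and Alas1 extend 20069 to 29697 bp downstream of the TSS.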

How the data were processed

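RNA-seq libraries were polyA-enriched and prepared from liver RNA of 12 samples in 3 groups of 4. The authors aligned reads to mm9 with STAR and quantified RefSeq transcripts with HOMER. RPKM is the unit of the deposited table. Tool versions are not given in the sources used here. Acetylated regions are deposited as chromosome, start and end. Other ChIP-seq data were not used here.

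For each of 23813 genes the transcript listed first was taken. A row lacking a gene name (1 in all, holding at most 0.00079% of the RPKM of a library) was dropped. The depth was recovered from the steps between low values, of which 63.5% to 72.3% came out as whole reads within 0.05. This share is too low to treat the values as counts. Reads given for Cyp2b13 and Akr1b7 are estimates from this depth. For Akr1b7 they use a transcript length fitted to give whole reads, 1241 bp, where GENCODE has 1281 bp. A gene entered a comparison when 4 or more of its libraries reached 0.1 RPKM. The log2 of RPKM + 0.1 was fitted in limma 3.58.1 under R 4.3.3 for the 2 groups in question, letting the prior variance follow the mean level, and p-values were adjusted by Benjamini-Hochberg over every gene fitted. Fold changes on this scale understate changes of low genes. At 0.1 RPKM a library held 2.13 to 4.26 reads per kilobase. Thresholds were an adjusted p of 0.01 and, except for L-NCOR1ΔID against hypothyroid WT, a log2 fold change of 1. The procedure was tested on simulated data.

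The 8 genes and all lists were chosen with earlier results of these data known. All 8 were named, with the listed genes past the thresholds (at most the 4 with the largest change per list and comparison), Ncor1 and the 3 genes most like each of the 8 except Cyp2b13. The result of 1 gene of the partner list is not reported here. Cyp2b13 and Akr1b7 reads, Tomm40l, markers, ratios and the partner and haem genes that missed a threshold were added after the values were seen. Genes were placed with GENCODE M1 at the transcript with the longest coding sequence, and sequences were read from NCBIM37, which is mm9. Alternatives were pseudocounts of 1 and 0.01, no filter, a mean level of 1 RPKM or more, a joint fit of all 12 libraries, a replicate block, scaling to equal medians of gene ratios, no variance trend, the transcript with the highest mean, each library left out and windows of 50 and 200 kb. Python 3.11.15, pandas 2.3.3, pysam 0.24.0, Biopython 1.88 and matplotlib 3.10.9 were used.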

Additional observations from a re-analysis of the deposited data

Results flagged for a closer look

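Of 24 groups of 4 libraries (8 genes in 3 groups), 3 held a library far from the other 3, with a gap to its nearest neighbour that exceeded the 95% limit of Dixon's ratio. Chance gives about 1 in 20 such groups. Cyp2b9 was listed at 25.42 RPKM in hyperthyroid WT replicate 1, and at 7.571 to 10.27 RPKM in the other hyperthyroid libraries. In the same library Cyp2b13 was listed at 1.403 RPKM, and at 0.276 to 0.43 RPKM in the others. Cyp2b13 was also high in L-NCOR1ΔID replicate 1, at 0.157 RPKM against 0.013 to 0.028 RPKM, which stands for an estimated 12 reads against 1 or 2. Reads shared between the transcripts of Cyp2b9 and Cyp2b13 were not tested.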

How the results depend on the processing

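Every difference of the 8 genes kept its direction in all alternatives in which it could be tested, except that of Cyp2b9 for T3, which ranged from -0.26 to 0.36 when 1 library was left out. The numbers of genes past the thresholds for T3 were 1155 higher and 484 lower, with 575 and 319 at a pseudocount of 1 and 746 and 679 when scaled to equal medians of gene ratios, which also raised the 2 genes of the 8 that were lower without overlap to 4. For L-NCOR1ΔID against hypothyroid WT they were 100 and 75, with 118 lower in a fit of all 12 libraries and 63 higher with no variance trend. For L-NCOR1ΔID against hyperthyroid WT the 774 lower became 480 at a pseudocount of 1.

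Leaving out 1 library gave 36 to 110 genes higher and 28 to 77 lower in L-NCOR1ΔID, where fewer samples were tested and all but L-NCOR1ΔID replicate 4 lowered the number higher to 56 or fewer, 5 to 8 CAR and PXR targets higher and 0 to 1 lower, and 2 to 4 of the 8 genes higher and 1 to 2 lower without overlap. For T3, 2 to 3 of the 8 were lower without overlap. Samples with the same replicate number deviated from their group means with correlations of -0.12 to 0.17, so that the numbers were not taken to pair them, and 4, 3 and 0 of 8 libraries correlated best with their own number. With the replicate block, 20 genes were higher and 25 lower in L-NCOR1ΔID, 3 targets among the higher, and 1055 and 451 for T3. The median number of acetylated regions was 4 within 50 kb and 15.5 within 200 kb. The cause of these changes was not tested. Depth limits Cyp2b13 and Akr1b7, for which 1 read is worth 0.0125 to 0.0378 RPKM.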
